A study of Mus musculus with 2 samples.

Results

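The galectins and the galectin-3-binding protein were followed through 2 mouse libraries, 1 made from embryonic fibroblasts and 1 from macrophages grown out of bone marrow. The members were chosen by symbol, as Lgals1, Lgals2, Lgals3, Lgals3bp, Lgals4, Lgals8 and Lgals9, and all 7 were found among the 34295 genes of the table, each on 1 row. Galectins are small lectins that bind sugars ending in galactose. They are made in the cytosol and leave the cell without a signal peptide, and outside it they crosslink glycoproteins of the cell surface and matrix into lattices, while inside it some of them mark broken vesicles whose inner sugars are laid bare. In macrophages galectin-3 is also known as the surface antigen Mac-2, and galectin-1 is an abundant product of fibroblasts and other mesenchymal cells.

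The embryonic fibroblasts were wild type C57BL/6J cells from E13.5-E14.4 embryos, taken without head and red tissue, freed by sorting of cells positive for CD45, CD11b or F4/80, grown in DMEM with 10% serum, used at passage 4 to 7 and given as 100000 cells. The bone marrow derived macrophages were wild type C57BL/6J cells grown until day 6 in RPMI with 10% serum and 30% L929-conditioned medium and given as 750000 cells. The study set out to compare growth factors and their receptors in the 2 cell types. Each value is given in TPM, the transcripts of a gene in every 1000000 of its library, which allows for gene length and can be set side by side between genes of a library. With 1 library per cell type there is no replicate error and no test, and the read depth behind each value is unknown, since TPM do not carry it. Every difference describes these libraries, in which cell type cannot be told apart from medium, cell number and preparation. In bulk RNA a larger share of expressing cells and more RNA per cell cannot be told apart either.

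Cell type markers fitted the labels. All 12 macrophage markers, among them Cd68 and Lyz2, were higher in the macrophage library and appeared in the fibroblast library at 0.0384% to 0.505% of their macrophage value. All 12 fibroblast markers, among them Col1a1 and Sparc, were higher in the fibroblast library and appeared in the macrophage library at 0.0693% to 0.401% of their fibroblast value. Of 6 neutrophil markers 3 were higher in the macrophage library, where the list summed to 442 TPM, against 1.93 TPM in the fibroblast library. Most of the macrophage sum was S100a9 and S100a8, at 268 and 157 TPM, and Ltf had 12.0 TPM. Elane and Mpo, at 2.34 and 2.83 TPM there, and Ly6g, listed at 0, are named after their values were seen. Of 10 epithelial markers, Krt19 at 23.2 TPM in the fibroblast library was the one above 5 TPM in either library. No endothelial, T cell or erythroid marker met the 4-fold rule used for all genes, and of 5 dendritic cell markers Itgax did, with 0.0971 TPM in fibroblasts and 6.96 TPM in macrophages.

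The summed RNA of the members was dominated in both cell types by Lgals1 and Lgals3, in opposite order. This sum includes Lgals3bp, which is not a galectin. The members summed to 4925 TPM in fibroblasts, or 0.493% of the library, and to 12940.4 TPM in macrophages, or 1.29%. Lgals1 made up 82.3% of the fibroblast sum and Lgals3 14.2%. In macrophages Lgals1 made up 21.1% and Lgals3 68.0%. Lgals3bp, Lgals9 and Lgals8 took 1.55%, 0.979% and 0.977% of the fibroblast sum and 7.19%, 2.89% and 0.831% of the macrophage sum. Lgals3bp and Lgals9 thus held a larger share in macrophages and Lgals8 a slightly smaller one. Without Lgals3 the remaining 6 members summed to 4226 TPM in fibroblasts and 4145.7 TPM in macrophages. These near-equal sums join a lower Lgals1 in macrophages with higher Lgals3bp, Lgals9 and Lgals8 there. Lgals3 had the largest difference in TPM of any member. Below the top pair the order was Lgals3bp, Lgals9, Lgals8, Lgals4 and Lgals2 in both libraries.

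**Figure D1:**
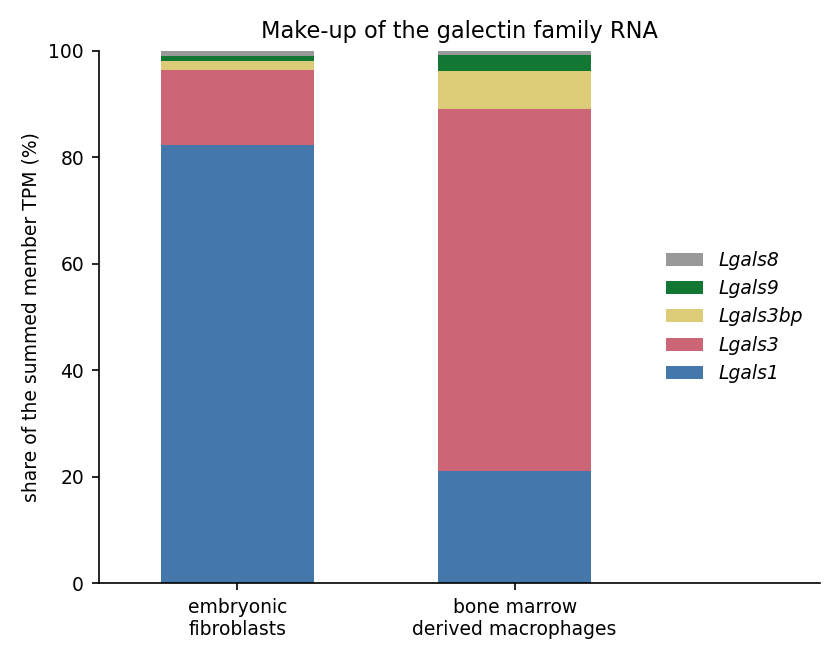
Share of the summed member TPM, in percent, held by each member in the embryonic fibroblast library (left bar) and the bone marrow derived macrophage library (right bar), 1 library each. Lgals1 fills 82.3% of the fibroblast bar and Lgals3 68.0% of the macrophage bar; Lgals4 and Lgals2 are too small to be drawn.

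Genes were called higher in a library where the ratio of TPM plus 1 was at least 4-fold, a log2 ratio of 2, and the higher value was at least 5 TPM. All log2 ratios are of fibroblasts over macrophages, on the scale of TPM plus 1, which understates the difference of low genes. Lgals3, Lgals3bp and Lgals9 were higher in macrophages by this rule, no member was higher in fibroblasts, and the other 4 met the rule in neither direction. Of the 7 members 5 reached 5 TPM in 1 library or both. Among all 11191 genes that did so, 14.3% were higher in fibroblasts and 8.77% in macrophages. Among the 2145 genes that reached 100 TPM in a library, the 5 members among them, 272 were higher in fibroblasts and 309 in macrophages. The median log2 ratio was -1.14 over all 7 members and -2.04 over the 6 detected ones, beside 0.28 over all detected genes, where detected means 1 TPM or more in a library.

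**Figure D2:**
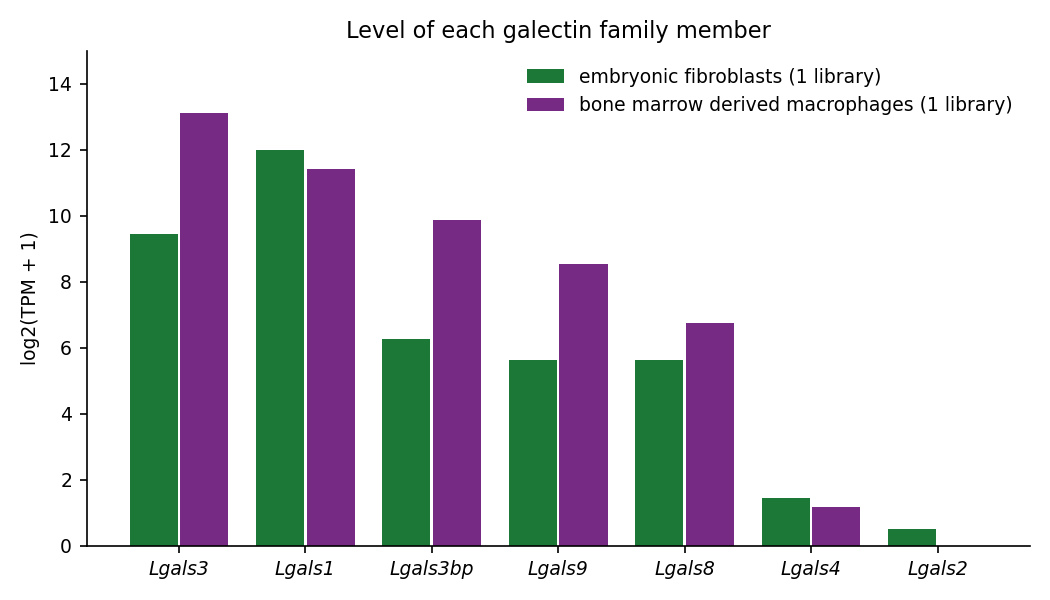
Level of each member as log2(TPM + 1), with embryonic fibroblasts left and bone marrow derived macrophages right in each pair of bars (1 library each, no error bars). Lgals3, Lgals3bp and Lgals9 stand higher in macrophages, Lgals1 is high in both, and Lgals4 and Lgals2 are near 0 in both.

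Lgals3 encodes galectin-3, the chimera-type galectin, which joins a single sugar-binding domain to a long tail rich in proline and glycine through which molecules assemble. It had 699 TPM in fibroblasts and 8795 TPM in macrophages, 12.6-fold higher in macrophages, with a log2 ratio of -3.65. Of all 34295 genes it ranked 238 in fibroblasts and 7 in macrophages, so it was an abundant transcript in both libraries. Of the 11191 genes at 5 TPM or more, 476 had a log2 ratio as low as this or lower. The fibroblast level was 7.95% of the macrophage level, against the 0.0384% to 0.505% at which macrophage markers appeared in the fibroblast library. Some of these markers were sorted against, and the part of macrophage transcripts in the fibroblast value was not tested. Neutrophils also carry galectin-3, and the part of the neutrophil transcripts in this difference was not tested. The gene lies at chr14:47367751-47386160 on the plus strand (GRCm38, ENSMUSG00000050335), and its principal transcript has 6 exons and 264 codons.

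Lgals3bp encodes a secreted glycoprotein with a scavenger receptor cysteine-rich domain, a ligand of galectin-3 that also binds integrins, collagens and fibronectin. It had 76.3 TPM in fibroblasts and 931 TPM in macrophages, 12.2-fold higher in macrophages, with a log2 ratio of -3.59. The RNA of this ligand and of its galectin thus differed by nearly the same factor. Lgals3 exceeded Lgals3bp 9.16-fold in fibroblasts and 9.45-fold in macrophages, a comparison within each library that no scaling between libraries can alter. The fibroblast level of Lgals3bp was 8.20% of the macrophage level. The gene lies at chr11:118392751-118402092 on the minus strand (ENSMUSG00000033880), with 6 exons and 577 codons.

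Lgals9 encodes galectin-9, a tandem-repeat galectin with a pair of sugar-binding domains on a linker, known as an eosinophil attractant and as a ligand of the receptor TIM-3. It had 48.2 TPM in fibroblasts and 374 TPM in macrophages, 7.76-fold higher in macrophages, with a log2 ratio of -2.93. Its fibroblast level was 12.9% of its macrophage level. This was the smallest difference of the 3 members called. It lies at chr11:78962974-78984946 on the minus strand (ENSMUSG00000001123), with 11 exons and 353 codons in the principal transcript.

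Lgals8 encodes galectin-8, another tandem-repeat galectin, which in human cells binds sugars exposed inside ruptured vesicles and brings in the autophagy receptor NDP52. It had 48.1 TPM in fibroblasts and 107.6 TPM in macrophages, 2.24-fold higher in macrophages, and with a log2 ratio of -1.14 it did not meet the rule. Lgals9 and Lgals8 were thus close in fibroblasts, with a ratio of 1.00, whereas Lgals9 exceeded Lgals8 3.48-fold in macrophages. Lgals8 lies at chr13:12439415-12464944 on the minus strand (ENSMUSG00000057554). Its 3′ end overlaps Heatr1 on the opposite strand, which had 14.2 TPM in fibroblasts and 20.7 TPM in macrophages. Whether strand was used in the counting is not given in the sources used here, and reads of the shared stretch could go to either gene.

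Lgals1 encodes galectin-1, a prototype galectin with a single domain that works as a dimer and can trigger death of activated T cells. It had 4051 TPM in fibroblasts and 2732 TPM in macrophages, 1.48-fold higher in fibroblasts, with a log2 ratio of 0.57. It ranked 17 in fibroblasts and 37 in macrophages, so both cell types held it among their most abundant transcripts. The macrophage level was 67.4% of the fibroblast level, against the 0.0693% to 0.401% at which fibroblast markers appeared in the macrophage library. The part of fibroblast transcripts in the macrophage value was not tested. Within libraries the ratio of Lgals3 to Lgals1 was 0.173 in fibroblasts and 3.22 in macrophages, which is 18.7-fold apart. Lgals1 lies at chr15:78926725-78930465 on the plus strand (ENSMUSG00000068220), with 4 exons and 135 codons. Its processed pseudogenes Lgals1-ps1 and Lgals1-ps2 were listed at 0 in both libraries.

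Lgals4 and Lgals2 encode galectins known from the gut epithelium, galectin-4 of the tandem-repeat type and galectin-2 of the prototype. Lgals4 had 1.72 TPM in fibroblasts and 1.23 TPM in macrophages. Lgals2 had 0.406 TPM in fibroblasts, with 0 listed in macrophages. Neither reached the minimum of 5 TPM, and a value listed at 0 may be a failed estimate, so no fold is given. The 10 epithelial markers summed to 25.6 TPM in fibroblasts and 0.859 TPM in macrophages. Most of the fibroblast sum was Krt19, which was listed at 0 in macrophages, and Krt18, named after its values were seen, had 1.08 TPM in fibroblasts and 0.0747 TPM in macrophages. The other 8 were below 1 TPM in both libraries. The part of epithelial transcripts in the Lgals4 and Lgals2 values was not tested. Lgals2, at chr15:78850860-78855529 on the minus strand (ENSMUSG00000043501), overlaps at its 3′ end Cdc42ep1 on the opposite strand, which had 31.5 TPM in fibroblasts and 0.0784 TPM in macrophages. Lgals4 lies at chr7:28833854-28841708 on the plus strand (ENSMUSG00000053964).

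Other galectin family genes were sparse in both libraries except for Lgalsl, which encodes the galectin-related protein, a relative that lacks galactose binding. Lgalsl had 41.3 TPM in fibroblasts and 2.89 TPM in macrophages, 14.3-fold higher in fibroblasts, with a log2 ratio of 3.44, the opposite direction to Lgals3, Lgals3bp and Lgals9. Lgals7, a gene of stratified epithelium, had 1.34 TPM in fibroblasts, with 0 listed in macrophages. Lgals12, known from fat cells, and Grifin, known from the eye lens, were listed at 0 in both. No gene with the symbol Lgals6 was found, so it could not be analysed.

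**Figure D3:**
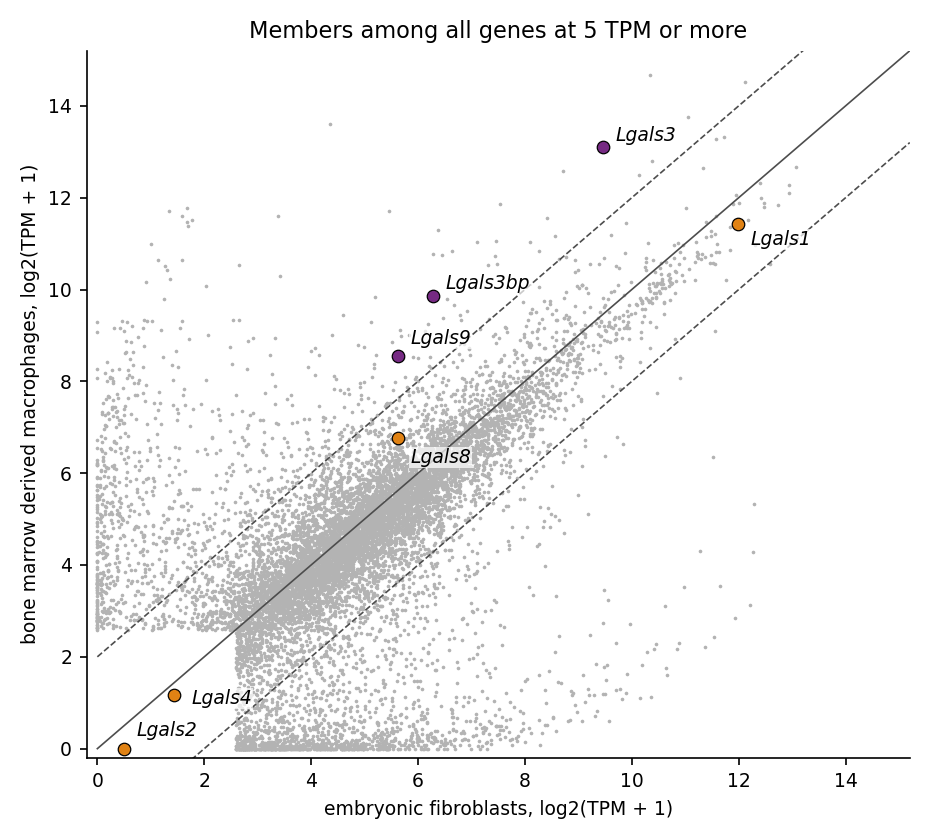
Each grey point is 1 of the 11191 genes that reached 5 TPM in a library, by its log2(TPM + 1) in embryonic fibroblasts (horizontal) and bone marrow derived macrophages (vertical). The solid line marks equal values and the dashed lines a log2 ratio of 2 in either direction. Lgals3, Lgals3bp and Lgals9 (purple) lie beyond the dashed line on the macrophage side, and the members called in neither direction are orange; Lgals4 and Lgals2, below 5 TPM, are added.

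The promoters of the 3 members higher in macrophages are shown because galectin-9 and the galectin-3-binding protein are known as interferon-induced proteins. In addition, 13 of 16 listed interferon-stimulated genes were also higher in macrophages, beside 8.77% of all genes at 5 TPM or more. They are RefSeq promoters (GRCm38.p6) from 250 bases before the annotated start to base 30 after it, written 5′ to 3′ on the strand of the gene. Capitals mark the interferon-stimulated response element core (GAAA and GAAA with 2 bases between them), the interferon regulatory factor core AANNGAAA and the GC box GGGCGG, each on either strand. The promoters lie at chr11:78984895-78985174 on the minus strand for Lgals9, at chr11:118401930-118402209 on the minus strand for Lgals3bp and at chr14:47373610-47373889 on the plus strand for Lgals3. The Lgals3 promoter lies wholly within the gene span given above, and the sequence before the 5′ end of that span was not searched.
Lgals9: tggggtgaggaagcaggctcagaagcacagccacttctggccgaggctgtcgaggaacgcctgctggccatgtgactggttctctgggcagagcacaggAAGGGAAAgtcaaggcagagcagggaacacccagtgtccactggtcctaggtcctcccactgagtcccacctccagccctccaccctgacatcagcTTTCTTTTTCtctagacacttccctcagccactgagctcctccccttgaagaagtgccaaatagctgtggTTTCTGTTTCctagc
Lgals3bp: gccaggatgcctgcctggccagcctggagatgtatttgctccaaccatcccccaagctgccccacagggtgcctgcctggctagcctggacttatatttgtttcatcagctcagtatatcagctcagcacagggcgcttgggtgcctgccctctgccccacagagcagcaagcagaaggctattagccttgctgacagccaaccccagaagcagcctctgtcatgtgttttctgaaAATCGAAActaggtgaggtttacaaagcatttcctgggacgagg
Lgals3: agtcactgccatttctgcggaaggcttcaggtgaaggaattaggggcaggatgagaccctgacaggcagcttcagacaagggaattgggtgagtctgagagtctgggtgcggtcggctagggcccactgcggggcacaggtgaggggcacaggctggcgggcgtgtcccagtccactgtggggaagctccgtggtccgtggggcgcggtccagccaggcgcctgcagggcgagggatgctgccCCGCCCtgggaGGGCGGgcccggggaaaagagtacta

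The Lgals9 promoter held the response element core at 2 places on the reverse strand, the first beginning 55 bases upstream of the start and the second at base 16 after it. Of 32851 promoters of this length 3.28% held this core, and of the 13 interferon-stimulated genes with a listed promoter 7 did. The Lgals3bp promoter held the shorter regulatory factor core once, 14 bases upstream of the start, as did 23.1% of all promoters. Any response element core also contains the shorter core, so both Lgals9 matches count for each, and Lgals9 held the shorter core once more, 151 bases upstream. The Lgals3 promoter held neither interferon motif but had 2 GC boxes, a motif found in 34.7% of promoters, and 66.1% of its bases were G or C, against a median of 52.5% in all promoters. The promoters of Lgals2, Lgals4 and Lgals8 held neither interferon core. The Lgals8 promoter, at chr13:12461709-12461988 on the minus strand, also lies wholly within its gene span. The sequence before the 5′ end of that span was not searched. The PU.1 core GAGGAAGT, the AP-1 site TGANTCA and the TATA box TATAAA were in none of the 6 member promoters searched, and in 2.82%, 7.46% and 13.1% of all promoters. These are matches of letters, and no binding was measured.

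Of the 16 interferon-stimulated genes none was higher in fibroblasts and 13 were higher in macrophages. Among all genes at 5 TPM or more these shares were 14.3% and 8.77%. The median log2 ratio of the list was -3.60, beside the 0.28 of all detected genes. Bst2, encoding the virus-holding protein tetherin, had 97.9 TPM in fibroblasts and 1841 TPM in macrophages. Irf7, a transcription factor of the interferon response, had 1.63 TPM in fibroblasts and 327 TPM in macrophages. Oas1a and Isg15 had 0.302 and 10.7 TPM in fibroblasts and 199 and 196 TPM in macrophages. The list ranged from -7.26 to -0.73. The log2 ratios of Lgals3, Lgals3bp, Lgals9 and Lgals8 lie within this wide range, and a part of interferon in them was not tested.

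Surface and vesicle glycoproteins known as galectin partners included genes higher in either library. Of 26 listed genes 24 were detected. By the rule 4 were higher in fibroblasts and 6 in macrophages, which left 14 in neither direction, and the median log2 ratio was -0.01, beside 14.3% and 8.77% called among all genes at 5 TPM or more. Trem2, encoding a lipid receptor of macrophages that binds galectin-3, had 1.41 TPM in fibroblasts and 1452 TPM in macrophages. Havcr2, encoding TIM-3, a receptor of galectin-9, had 0.920 TPM in fibroblasts and 105 TPM in macrophages. Both receptor genes were thus higher in the same library as the galectin they bind, whereas Egfr, described below, lay opposite to Lgals3. Ptprc, encoding CD45, and Itgam, encoding CD11b, had 0.352 and 0.483 TPM in fibroblasts and 142 and 303 TPM in macrophages. The fibroblasts had been sorted against both proteins, so these differences are no finding, and Itgam is the sum of 2 differing rows.

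Toward fibroblasts the glycoprotein genes past the rule were Thy1, Mcam, Egfr and Itga3. Thy1, encoding a surface glycoprotein to which galectin-1 binds on T cells and also one of the fibroblast markers, had 642 TPM in fibroblasts and 2.58 TPM in macrophages. Mcam, encoding the adhesion molecule CD146, had 65.0 TPM in fibroblasts and 1.78 TPM in macrophages. Egfr, encoding a growth factor receptor held at the surface by galectin-3 lattices, had 22.2 TPM in fibroblasts and 0.197 TPM in macrophages, and the integrin gene Itga3 had 13.8 TPM in fibroblasts and 0.0419 TPM in macrophages. With a pseudocount of 5 in place of 1 Itga3 no longer met the rule. Many widely used ligands did not meet the rule, and 2 of these are named here after their values were seen. Lamp1, whose product coats the lysosome and carries many galectin-binding chains, had 1227 TPM in fibroblasts and 1654 TPM in macrophages, and the integrin gene Itgb1 had 896 TPM in fibroblasts and 362 TPM in macrophages.

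Matrix partners lay on the fibroblast side. Of 13 listed genes 11 were detected. By the rule 10 were higher in fibroblasts and none in macrophages, beside 14.3% and 8.77% of all genes at 5 TPM or more. The median log2 ratio was 7.18, beside 0.28 over all detected genes. Fn1, encoding fibronectin, had 2015 TPM in fibroblasts and 10.5 TPM in macrophages. The collagen genes Col5a1, Col6a1 and Col4a1 had 554, 449 and 390.1 TPM in fibroblasts and 1.03, 0.523 and 1.74 TPM in macrophages. Lgals3bp, whose product binds these collagens and fibronectin, was thus higher in the library in which their genes were lower. Lamc1, encoding the laminin gamma-1 chain and named after its values were seen, was the detected member in neither direction, with 86.9 TPM in fibroblasts and 28.9 TPM in macrophages.

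The enzymes that build galectin-binding sugar chains included 3 genes past the rule. Of 11 genes for glycan branching and N-acetyllactosamine, all detected, 1 was higher in fibroblasts and 2 in macrophages, 8 did not meet the rule, and the median log2 ratio was -0.29. Among all genes at 5 TPM or more 14.3% were higher in fibroblasts and 8.77% in macrophages, so the counts of this list are no result about these enzymes. Gcnt1, whose enzyme makes the branched core 2 O-glycans, had 1.89 TPM in fibroblasts and 62.5 TPM in macrophages. Mgat4a, encoding a branching enzyme of N-glycans, had 0.821 TPM in fibroblasts and 22.1 TPM in macrophages. Mgat3, whose enzyme adds the bisecting sugar that hinders further branching, was higher in fibroblasts, at 7.51 TPM against 0.0208 TPM in macrophages, a call lost with a pseudocount of 5 or a minimum of 10 TPM. Mgat5, the branching enzyme gene most often tied to galectin lattices and named after its values were seen, had 11.5 TPM in fibroblasts and 34.3 TPM in macrophages, with a log2 ratio of -1.50.

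Sialyltransferases cap galactose, and alpha-2,6 caps block binding of galectin-1. Of 7 listed genes 6 were detected, 1 was past the rule toward each library, and the median log2 ratio of the 6 was 0.58. With so few genes these counts are not set apart from the 14.3% and 8.77% of all genes. St6gal1, which makes the alpha-2,6 cap on N-glycans, had 3.28 TPM in fibroblasts and 17.2 TPM in macrophages, with a log2 ratio of -2.08, close to the limit and lost with a pseudocount of 5. St3gal2, which makes alpha-2,3 caps, had 70.7 TPM in fibroblasts and 12.5 TPM in macrophages.

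Galectin-3, galectin-8 and galectin-9 act inside the cell in the response to damaged vesicles. Of 17 genes listed for it 16 were detected, of which 1 was higher in fibroblasts, none in macrophages and 15 in neither direction, beside the 14.3% and 8.77% of all genes. Their median log2 ratio was 0.37, beside the 0.28 of all detected genes. Trim16, encoding a partner of galectin-3 in human autophagy of damaged lysosomes, was the one past the rule, with 41.4 TPM in fibroblasts and 6.42 TPM in macrophages. It thus lay opposite to Lgals3. Calcoco2, the gene of NDP52, was listed at 0 in both libraries and was named after its values were seen.

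**Figure D4:**
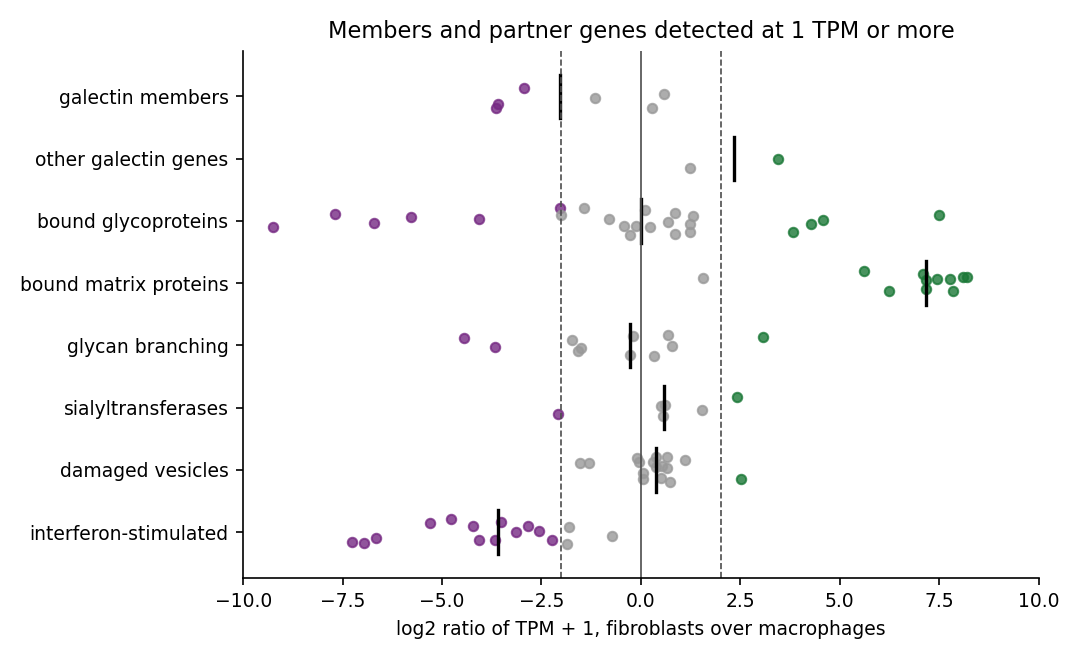
Log2 ratio of TPM plus 1, fibroblasts over macrophages, for each detected gene, by list. Green points were higher in fibroblasts and purple points in macrophages by the rule, grey points in neither, black bars are list medians, and dashed lines mark a log2 ratio of 2 in either direction; the matrix list lies on the fibroblast side and the interferon list on the macrophage side.

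The genes most like each member were taken as the 3 nearest by Euclidean distance between pairs of log2(TPM + 1) values, over 2 libraries. They were drawn from 10547 protein-coding genes at 5 TPM or more. Genes named only by a clone or gene model number were left out. With 2 libraries this likeness says only that the levels were close. Lgals1 lay nearest to S100a4, with 3650.3 TPM in fibroblasts and 2645 TPM in macrophages, then to Rpl41 and Tpt1. Nearest to Lgals3 was Ctsb, encoding cathepsin B, with 417 TPM in fibroblasts and 6133 TPM in macrophages. Its distance was 0.906, and Psap and B2m followed. Lgals3 ranked 7 in macrophages, and few genes have so high a level to lie near it. Lgals3bp lay nearest to Plin2, which encodes a lipid droplet coat protein, with 91.9 TPM in fibroblasts and 893 TPM in macrophages, and Gusb was also among its 3 nearest. Lgals9 lay nearest to Plekho1, Cndp2 and Esyt1, and Lgals8 to Pqlc3, Tnfaip2 and Limd2, with distances of 0.102 and 0.067 to the first of each.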

How the data were processed

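Poly(A) RNA of 1 library per cell type was sequenced in paired reads of 76 bp with a stranded kit, per the labels' protocols. kallisto 0.43.1 and the build GRCm38 are named in the submitters' processing notes; the transcript set, how genes were formed from transcripts and whether strand was used are not stated there. The deposited file gives TPM by their range and totals (999545 in fibroblasts and 999609 in macrophages), since the file names no unit. The 34456 rows were summed by symbol into 34295 genes (Python 3.11.15, pandas 2.3.3); 158 symbols stood on more than 1 row, none of them a member. Symbols were matched to GENCODE M21 for coordinates (93.9% matched), and 6 of the 7 members had a promoter in the RefSeq table. Log2 ratios used a pseudocount of 1. The size rule was tested on simulated data with changes larger than its threshold. This checks the code and does not measure variation between libraries.

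Members, lists, rule and alternatives were chosen with earlier results of these data known, and motifs after the promoters were read. A lysosomal gene motif and an NF-kB motif were searched too, matched no member promoter and are not reported further. Protein sequences, planned for description, were not used here. Named genes are the members, the other galectin genes, the nearest genes and up to 4 genes per list and direction past the rule with the highest value; others are said to be named after their values were seen. A gene that the rule for nearest genes names is not reported here.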

Additional observations from a re-analysis of the deposited data

How the results depend on the processing

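The calls of Lgals3, Lgals3bp and Lgals9 and the direction of every member were kept under all 10 alternatives: pseudocounts of 0.1 and 5, minimums of 1 and 10 TPM and no minimum, a threshold of 2-fold, scaling by the median of ratios, scaling on all genes but the mitochondrial ones and the top 50 of each library (members kept), the highest single row, and protein-coding genes alone. The changed minimums, the 2-fold threshold and the highest single row left every member's log2 ratio as it was and could not undo these calls. Only the pseudocounts, the scalings and the protein-coding setting put them to a trial. Log2 ratios ranged from -3.83 to -3.64 for Lgals3, from -3.77 to -3.52 for Lgals3bp, from -3.11 to -2.83 for Lgals9 and from 0.39 to 0.58 for Lgals1. Lgals2, below the minimum throughout, ranged from 0.11 to 2.34. At a 2-fold threshold Lgals8 (-1.14) also counted as higher in macrophages. Over all genes, 1602 higher in fibroblasts and 981 in macrophages became 896 and 652 with a pseudocount of 5, which shrinks low genes, and 2637 and 1698 at 2-fold. The median log2 ratio without a pseudocount, over the genes that reached 5 TPM in both libraries, was 0.18, which scaling by the median of ratios removes. Of 23 named partner genes past the rule, 3 lost their call under an alternative: with a pseudocount of 5 the log2 ratios were 1.90 for Itga3, 1.32 for Mgat3 and -1.42 for St6gal1, and Mgat3 also lay below the 10 TPM minimum. No paired analysis was possible because each group holds 1 library, and no replicate could be left out. TPM give no depth, so no detection limit can be set for Lgals2 or Lgals4.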

Other observations

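The nearest protein-coding genes of the table on either side of Lgals3, Lgals9 and Lgals3bp were not higher in macrophages by the rule. Only 8.77% of all genes at 5 TPM or more were, so this is no result about these neighbours. Beside Lgals3 these were Mapk1ip1l and Dlgap5, with log2 ratios of 0.67 and 0.66, against -3.65 for Lgals3, and Dlgap5 lies 1618 bases away. Beside Lgals9 lie Nos2, which encodes the inducible nitric oxide synthase and lies 2719 bases away, and Ksr1. Nos2 was listed at 0 in fibroblasts and had 0.116 TPM in macrophages, and Ksr1 had 2.51 TPM in fibroblasts and 1.46 TPM in macrophages. Both lay below the minimum of 5 TPM, so the rule could not call them. Beside Lgals3bp, Timp2, encoding a metalloprotease inhibitor, was higher in fibroblasts, with 1907 TPM there against 269.8 TPM in macrophages, and Cant1 had 47.5 TPM in fibroblasts and 32.9 TPM in macrophages.

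The prototype genes Lgals2 and Lgals1 lie 71195 bases apart on chromosome 15, with the rare Lgals2 at 0.406 TPM and the abundant Lgals1 at 4051 TPM in fibroblasts. Sh3bp1 and Nol12, which flank Lgals1, had 29.4 and 67.7 TPM in fibroblasts and 45.7 and 55.9 TPM in macrophages. On chromosome 7, Lgals4 and Lgals7 lie 22144 bases apart, and both stayed below 2 TPM in either library.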
